A study of Mus musculus with 6 samples.

Results

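Transcription factors that direct bone and cartilage formation were followed in primary mouse aortic smooth muscle cells, which make up the contractile layer of arteries. The set was fixed by name and has 9 genes of 27179 in the deposited table: Runx1 and Runx2 (RUNX family), Sp7, the SOX genes Sox5, Sox6 and Sox9, and the homeobox genes Msx1, Msx2 and Dlx5. Each symbol matched 1 row, and all 9 members were among the 16086 genes with enough reads to be tested. Messenger RNA was sequenced in 6 libraries, 3 labelled Bmal1 KO and 3 labelled WT. Both groups came from the aorta and had been in growth medium with 10% fetal bovine serum to which glucose at 4.5 g/L and hydrogen peroxide at 0.3 mM were added, which the labels call a diabetic condition, for 7 days. The labels give neither the age of the mice, nor the allele or Cre driver behind the knockout, nor whether replicates came from separate animals or cultures, so the p-values cover the spread between these libraries alone, which may be technical.

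In bone, RUNX2 binds DNA with its partner CBFB and starts the osteoblast program, and SP7 (osterix) acts after it to complete that program. In cartilage, SOX9 switches on the genes of the matrix, and SOX5 and SOX6, which lack an activation domain of their own, help it to do so. MSX and DLX homeodomain proteins act in limb, skull and tooth development, where MSX proteins mostly repress and DLX5 activates, in part through Runx2 and Sp7. Arterial smooth muscle cells can take on some of these features when vessel walls calcify, which is why the factors are studied in diabetic vascular disease.

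Recovered reads ran from 32503525 to 38074293 per library labelled Bmal1 KO and from 39129037 to 44657471 per WT library. Values are normalized read counts, that is, reads divided by 1 scale factor per library, with the SD over the 3 libraries of each group after ±. Bmal1 itself, listed as Arntl, was not reduced where the label says knockout, with 1036, 941 and 1036 normalized counts in libraries labelled Bmal1 KO against 529, 619 and 590.3 in WT libraries (limma adjusted p = 0.000135). The counts pool all exons, so loss of a single exon would not be visible in them and they check nothing about the label. Every direction given here is between libraries labelled Bmal1 KO and WT libraries. Xist, which marks an inactive X chromosome, had 3842 to 3887 normalized counts in libraries labelled Bmal1 KO and 12.4 to 89.9 in WT libraries, while Ddx3y on the Y chromosome had 68.5 to 82.5 in libraries labelled Bmal1 KO and 2784 to 3314 in WT libraries. Genotype label and sex-linked expression therefore cannot be told apart for any factor described here. The smooth muscle markers Acta2, Tagln, Cnn1, Myh11, Smtn, Cald1 and Lmod1 were all present and higher in libraries labelled Bmal1 KO, and Synpo2 did not pass the test. Of 5 endothelial markers, 4 rose, and the summed list ran from 734 to 996 normalized counts in libraries labelled Bmal1 KO and from 317 to 452 in WT libraries. Such calls were common, as 71.1% of all tested genes had a limma adjusted p under 0.05, 36.2% higher and 34.9% lower. In bulk samples fewer cells of a type and less RNA per cell cannot be told apart.

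The RUNX genes share a feature of sequence that is shown because both members of this family were lower. The distal start of Runx1 and the start of Runx2 that RefSeq lists (GRCm38.p6) are each followed by a pair of RUNX sites, the letters AACCACA, set 1 base apart. The same pair stands near a start of Runx3, the other gene of the family. Capitals mark the sites.
Runx1, chr16:92826025-92826054, minus strand: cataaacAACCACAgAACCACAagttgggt
Runx2, chr17:44814578-44814607, minus strand: acAACCACAgAACCACAagtgcggtgcaaa
Runx3, chr4:135120503-135120532, plus strand: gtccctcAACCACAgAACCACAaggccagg
Of 32851 promoters in the RefSeq table, each from 250 bases before a start to 50 after it, 5.27% hold AACCACA on either strand and 4 promoters hold this pair on either strand, those of Runx1, Runx2, Runx3 and Gm16225. Runx2 has a further AACCACA that begins 81 bases before the start used here. That site lies inside the gene span given below, which reaches further upstream than this start.

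The distal Runx1 start also has the E-box CACGTG, the letters that CLOCK and BMAL1 bind, beginning 71 bases before the start. It is shown because Bmal1 is the gene named in the label, with the E-box in capitals.
Runx1, chr16:92826115-92826174, minus strand: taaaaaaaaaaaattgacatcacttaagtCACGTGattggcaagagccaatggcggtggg
CACGTG, which reads the same on both strands, occurs in 7.15% of the RefSeq promoters and in 1 of 12 promoters listed for members. The table lists promoters for Runx1, Runx2, Sox5, Sox6, Msx1 and Msx2. The nuclear receptor motif AGGTCA on either strand was in 3 of the 12 (1 of Runx2 and 2 of Sox6), against 16.3% of all promoters, and the D-box TTATGTAA in 0 of the 12, against 0.94%. A match is a run of letters, not a bound site.

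All 9 factors differed between the groups, with 4 higher and 5 lower. In libraries labelled Bmal1 KO, Sp7, Sox5, Sox6 and Dlx5 rose, and Runx1, Runx2, Sox9, Msx1 and Msx2 fell. The test was limma with Benjamini-Hochberg adjustment over all 16086 genes, at a threshold of 0.05. Calls were common in this comparison, with 71.1% of all tested genes past the threshold, 36.2% higher and 34.9% lower. The libraries of the groups did not overlap for any of the 9, which was also so for 76.7% of all tested genes. The factors were therefore spread over both directions, and their number past the threshold has to be read against that background. Their median log2 fold change was -0.25, against -0.012 for all tested genes. That median is the value of Runx2 alone, and the 9 ran from -2.23 (Msx1) to 3.76 (Dlx5), so it does not describe the set.

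**Figure D1:**
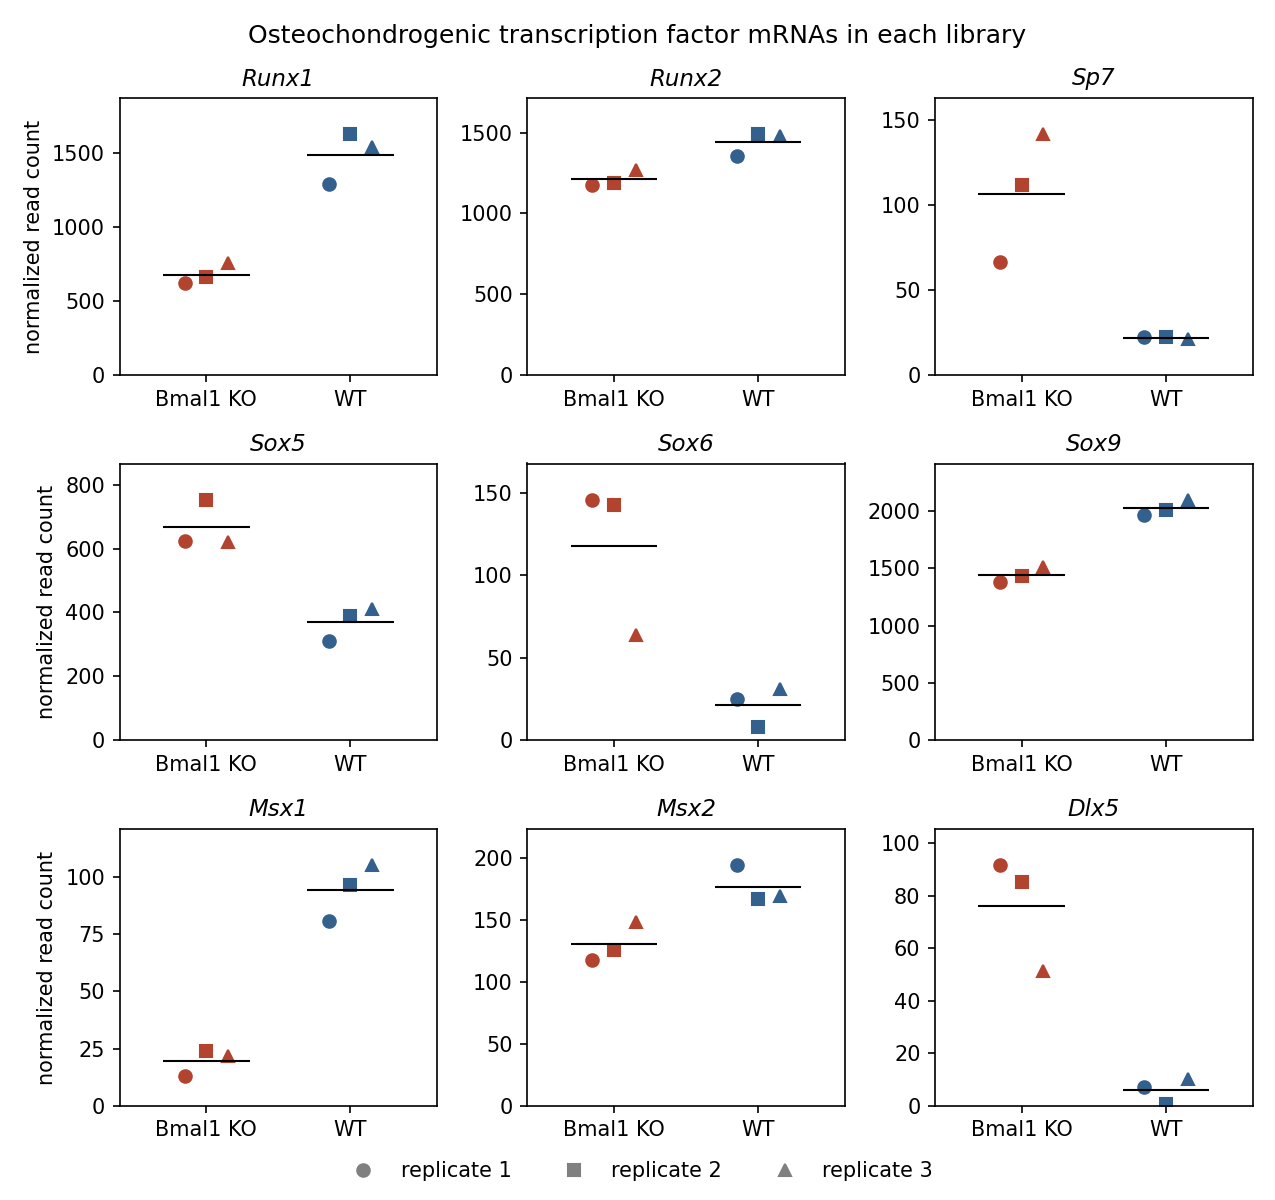
Normalized read counts (vertical axes, each from 0) of the 9 factors in each library, with libraries labelled Bmal1 KO on the left and WT on the right of each panel. Symbols are replicates and lines are group means. No panel shows overlap between the groups.

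The 3 factors with fewest reads in WT libraries (Dlx5, Sox6 and Sp7) rose, and the 3 with most (Sox9, Runx1 and Runx2) fell. The filter for testing was at least 10 normalized counts in at least 3 libraries. WT libraries alone did not meet it for Dlx5 and Sox6, which entered only with libraries labelled Bmal1 KO. Their rise therefore cannot show a link between level and direction. The WT level is also part of every fold change, so the other factors cannot show such a link either. Levels between genes were compared per kilobase of exon. Sox9 came first in both groups, at 349 normalized counts per kb in libraries labelled Bmal1 KO and 489 in WT libraries. Runx2 came next, at 137 per kb in libraries labelled Bmal1 KO and 163 in WT libraries, and then Runx1, at 56.3 per kb in libraries labelled Bmal1 KO and 123 in WT libraries. In WT libraries Msx2 (53.9 per kb), Msx1 (30.3), Sox5 (25.7), Sp7 (6.43), Dlx5 (2.70) and Sox6 (1.45) followed. The values of Msx1 and Sox5 overlapped between WT libraries, as did those of Dlx5 and Sox6, so these neighbours are not ordered. In libraries labelled Bmal1 KO the order after Runx1 was Sox5 (46.3 per kb), Msx2 (39.9), Dlx5 (33.6), Sp7 (31.3), Sox6 (7.92) and Msx1 (6.34). There the neighbours from Runx1 down to Sp7 overlapped in turn, and Sox6 overlapped with Msx1.

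**Figure D2:**
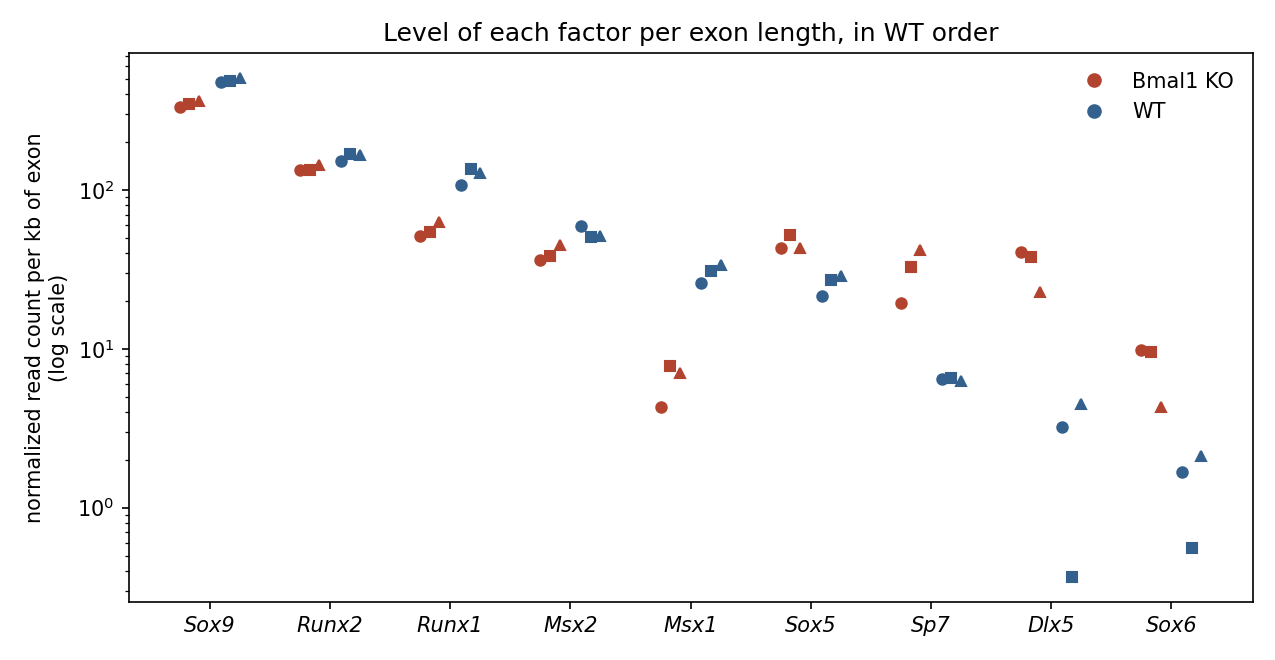
Normalized read count per kb of exon (vertical axis, log scale) of the 9 factors, ordered by the WT mean, with libraries labelled Bmal1 KO left of WT libraries for each gene. Circles, squares and triangles are replicates 1, 2 and 3. Sox9 and Runx2 lead in both groups, and Runx1 overlaps with Sox5 in libraries labelled Bmal1 KO.

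Runx1, a regulator of blood stem cells that is also made in skeletal progenitors, had the larger fall of the RUNX members. The gene (chromosome 16, 92601466 to 92826074, GRCm38) had 622, 658 and 752 normalized counts in libraries labelled Bmal1 KO, against 1291, 1624 and 1536 in WT libraries. Every library labelled Bmal1 KO lay far below the lowest WT library. The mean was 677 ± 67.1 in libraries labelled Bmal1 KO and 1484 ± 173 in WT libraries (SD, n = 3), which is 2.19-fold lower (log2 fold change -1.13, SE 0.11, adjusted p = 6.29e-05). Listed blood cell markers moved in both directions, beside 71.1% of all tested genes called, 36.2% higher and 34.9% lower. Ptprc, the pan-leukocyte gene CD45, had 155 ± 46.4 normalized counts in libraries labelled Bmal1 KO and 31.3 ± 23.9 in WT libraries. The summed macrophage list of 4 genes, of which 3 rose and Cd68 fell, ran from 1099 to 1185 in libraries labelled Bmal1 KO and from 555 to 662 in WT libraries. Csf1r made up most of the sum in libraries labelled Bmal1 KO (893 ± 14.6, against 216 ± 32.8 in WT libraries). Cd68 fell 4.71-fold, to 74.0 ± 13.4 in libraries labelled Bmal1 KO, against 348 ± 54.3 in WT libraries. The part of blood cells in the Runx1 result was not tested.

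Runx2, the gene that starts the osteoblast program, was lower by a small margin. It (chromosome 17, 44495987 to 44814797) had 1176, 1186 and 1268 normalized counts in libraries labelled Bmal1 KO and 1355, 1490.1 and 1477 in WT libraries. The groups were close but separate. The fall was 1.19-fold, with a log2 fold change of -0.25 (95% interval -0.42 to -0.085, adjusted p = 0.0138), and 22.9% of all tested genes had a smaller absolute change. Leaving out Bmal1 KO replicate 1 gave an adjusted p of 0.0535 and leaving out replicate 2 gave 0.0538, and each ended the call. With a trend on gene length and GC content removed, an alternative added after the data were seen, the log2 fold change was -0.51 (adjusted p = 0.000111). Counts pool the transcripts from both Runx2 promoters, so the isoforms were not separated. Exons of the antisense gene Runx2os1 cover 5.87% of the exon length of Runx2, and since the strand setting used in counting is not given in the sources used here, reads from this stretch cannot be assigned to either gene. The same holds for 0.88% of Runx1 (Gm26626) and 9.25% of Sox5 (Sox5os1).

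The balance between the RUNX genes shifted as well. Within a library, which removes any effect of scaling, the ratio of Runx1 to Runx2 counts was 0.529, 0.555 and 0.593 in libraries labelled Bmal1 KO and 0.953, 1.09 and 1.04 in WT libraries. The values did not overlap, and the difference was -0.88 on the log2 scale (two-sided exact permutation p = 0.10, the smallest that 3 against 3 allows). Runx3, active in T cells and chondrocytes, was 8.19-fold lower, at 24.6 ± 5.96 normalized counts in libraries labelled Bmal1 KO and 201 ± 48.2 in WT libraries (adjusted p = 3.48e-05). All 3 genes of the family were thus lower. Their shared DNA-binding partner Cbfb had 3304 ± 174 normalized counts in libraries labelled Bmal1 KO and 3504 ± 127 in WT libraries and did not pass the test (log2 fold change -0.086, adjusted p = 0.258).

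Sp7, the osterix gene that acts after Runx2 in osteoblasts, was higher although Runx2 was not. The gene (chromosome 15, 102356603 to 102367035) had 66.2, 111.5 and 142 normalized counts in libraries labelled Bmal1 KO, against 22.0, 22.4 and 21.2 in WT libraries. WT libraries lay close together, and the libraries labelled Bmal1 KO differed among themselves by more than the whole WT level. The rise was 4.87-fold (log2 fold change 2.17, SE 0.31, adjusted p = 0.000413). It rests on 282 reads in libraries labelled Bmal1 KO and 74 in WT libraries, a ratio with an exact 95% counting interval of 3.70 to 6.27, which covers counting error only. Other SP genes moved in both directions. Sp9 (3.95-fold) and Sp4 (1.49-fold) rose, while Sp6 (3.67-fold), Sp5 (4.64-fold), Sp3 (1.26-fold) and Sp1 (1.22-fold) fell. The Sp1 call was narrow (limma adjusted p = 0.0489), and its values overlapped between the groups. Sp8 had too few reads to be tested.

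Sox9, the switch for cartilage matrix genes, was the most abundant of the 9 per kb and was lower. The gene (chromosome 11, 112782210 to 112787757) had 1383, 1436 and 1507 normalized counts in libraries labelled Bmal1 KO and 1966, 2005 and 2098 in WT libraries. The spread within each group was small beside the gap between them. The mean was 1442 ± 62.2 in libraries labelled Bmal1 KO and 2023 ± 67.7 in WT libraries (SD, n = 3), 1.40-fold lower (log2 fold change -0.49, SE 0.065, adjusted p = 0.000298).

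Sox5 and Sox6, which assist SOX9 in cartilage, went the other way. Sox5 (chromosome 6, 143828425 to 144782287) had 625, 753 and 620.3 normalized counts in libraries labelled Bmal1 KO, against 310, 390 and 411 in WT libraries. Each library labelled Bmal1 KO was above every WT library, and the rise was 1.80-fold (log2 fold change 0.85, SE 0.14, adjusted p = 0.00085). Sox6 had 146, 143 and 64.0 normalized counts in libraries labelled Bmal1 KO and 24.8, 8.29 and 31.3 in WT libraries. Bmal1 KO replicate 3 was the lowest of its group for Sox6, and WT replicate 2 the lowest of the other. The rise was 5.47-fold (log2 fold change 2.49, SE 0.53, adjusted p = 0.0033), from 318 reads in libraries labelled Bmal1 KO and 71 in WT libraries. The ratio of Sox5 to Sox6 was 4.29, 5.28 and 9.70 in libraries labelled Bmal1 KO and 12.5, 47.0 and 13.1 in WT libraries, a log2 difference of -1.71 (two-sided exact permutation p = 0.10, the smallest possible). The ratio of 47.0 belongs to WT replicate 2, which held 10 Sox6 reads, and without it the difference was -1.09.

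Sox6 lies on chromosome 7 (115470872 to 116040776), 2.16 Mb from the end of Bmal1. Of 31 tested genes within 3 Mb of Bmal1, Sox6 included, 20 were higher and 5 lower in libraries labelled Bmal1 KO. On the whole of chromosome 7, 377 of 1204 tested genes were higher and 460 lower. The part of position in the Sox6 result was not tested.

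Relatives of the SOX members also split. Sox8 rose 2.01-fold, Sox10, which marks neural crest and Schwann cells, rose 5.27-fold (60.3 ± 28.8 normalized counts in libraries labelled Bmal1 KO and 11.5 ± 6.69 in WT libraries), and Sox4 fell 2.32-fold. Sox13, the other gene of the Sox5 and Sox6 group, had 212 ± 23.5 normalized counts in libraries labelled Bmal1 KO and 177 ± 33.0 in WT libraries (adjusted p = 0.207). Sox11 had 188 ± 14.1 normalized counts in libraries labelled Bmal1 KO and 195 ± 31.6 in WT libraries (adjusted p = 0.823). Schwann cells make Sox5, Sox6 and Sox10 as well. S100b, another gene of these cells, had 262 ± 27.7 normalized counts in libraries labelled Bmal1 KO and 48.8 ± 17.7 in WT libraries (adjusted p = 0.000114). The part of these cells in the SOX results was not tested.

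Msx1, a homeobox gene that holds progenitors in an undifferentiated state, had the largest fall of the 9. The gene (chromosome 5, 37820491 to 37824585) had 13.2, 24.0 and 21.7 normalized counts in libraries labelled Bmal1 KO, against 80.7, 96.2 and 105 in WT libraries. The highest library labelled Bmal1 KO lay well under the lowest WT library. The fall was 4.78-fold (log2 fold change -2.23, SE 0.29, adjusted p = 0.000246), with 52 reads in libraries labelled Bmal1 KO and 318 in WT libraries.

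Msx2, its close relative with roles in skull growth and vascular calcification, fell less. It (chromosome 13, 53466881 to 53472780) had 118, 126 and 149 normalized counts in libraries labelled Bmal1 KO and 194, 167 and 169 in WT libraries. The groups lay side by side without overlap, and the fall was 1.35-fold (log2 fold change -0.43, 95% interval -0.80 to -0.073, adjusted p = 0.0355). This call ended when Bmal1 KO replicate 1 or 2 was left out (adjusted p = 0.102 and 0.094), when WT replicate 1 or 3 was left out (adjusted p = 0.0963 and 0.0656), and with DESeq2 on the recovered reads (adjusted p = 0.0592). The ratio of Msx1 to Msx2 was 0.112, 0.19 and 0.146 in libraries labelled Bmal1 KO and 0.415, 0.577 and 0.62 in WT libraries, which did not overlap (two-sided exact permutation p = 0.10, the smallest possible). Benjamini-Hochberg adjustment over the 3 ratios tested left each p at 0.10. Msx3 had too few reads to be tested.

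Dlx5, an activator of Runx2 and Sp7 in developing bone, had the largest rise of the 9. The gene (chromosome 6, 6877801 to 6882068) had 91.7, 85.1 and 51.4 normalized counts in libraries labelled Bmal1 KO, against 7.34, 0.829 and 10.1 in WT libraries. WT replicate 2 held a single Dlx5 read, and libraries labelled Bmal1 KO together held 206 reads against 20 in WT libraries. The means differed 12.5-fold (log2 fold change 3.76, SE 0.67, adjusted p = 0.00139), with an exact 95% counting interval of 8.17 to 21.6 for the ratio of reads. Without WT replicate 2 the ratio of means was 8.71-fold, and without WT replicate 3 it was 18.6-fold. Among WT libraries only replicate 3 reached 10 normalized counts, so Dlx5 was tested only because libraries labelled Bmal1 KO were high. At this WT level a fall could not have been called.

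The DLX genes stand in pairs on the chromosomes, and the pairs moved apart. Dlx6, 9.8 kb from Dlx5, rose 4.09-fold, to 26.1 ± 10.2 normalized counts in libraries labelled Bmal1 KO, against 6.37 ± 5.18 in WT libraries (adjusted p = 0.018). Dlx6 too reached the filter only with libraries labelled Bmal1 KO, with 11.9, 1.66 and 5.53 in WT libraries. Dlx1 and Dlx2, 9.4 kb apart on chromosome 2, fell 1.96-fold and 1.55-fold (adjusted p = 0.006 and 0.00185). Dlx4 on chromosome 11 fell 18.5-fold (limma adjusted p = 6.84e-06). It had 12.9 ± 4.58 normalized counts in libraries labelled Bmal1 KO, against 238 ± 17.8 in WT libraries. Dlx4 reached the filter only with WT libraries, with 9.17, 18.0 and 11.4 in libraries labelled Bmal1 KO. Dlx3 beside it had too few reads to be tested. In all, 5 of 16 tested relatives of the 9 factors rose, 9 fell and 2 missed the threshold. Among all tested genes 71.1% were called, 36.2% higher and 34.9% lower. The number of relatives that rose was 3 without Bmal1 KO replicate 1 and 2 without Bmal1 KO replicate 2.

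**Figure D3:**
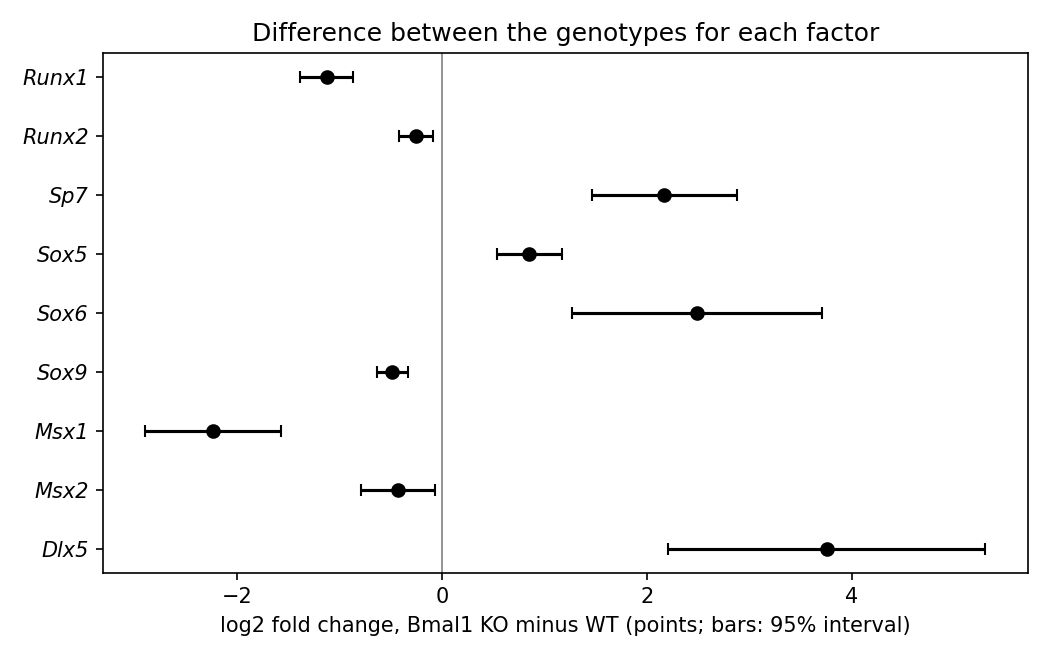
Log2 fold change of each factor (horizontal axis, libraries labelled Bmal1 KO minus WT), with limma estimates as points and 95% intervals as bars. Intervals lie above 0 for Sp7, Sox5, Sox6 and Dlx5 and below 0 for the other factors, nearest to 0 for Runx2 and Msx2.

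Genes for proteins that work with RUNX2 and SP7 moved in both directions. Of 20 partners and modifiers tested, 10 rose, 5 fell and 5 missed the threshold, beside 71.1% of all tested genes called, 36.2% higher and 34.9% lower. The median log2 fold change was 0.27, against -0.012 for all tested genes. Among those that restrain RUNX2, the Groucho corepressor gene Tle1 rose 4.58-fold (4163 ± 40.5 normalized counts in libraries labelled Bmal1 KO and 909 ± 32.9 in WT libraries, adjusted p = 8.08e-08), Zfp521 3.72-fold, the deacetylase gene Hdac4 1.79-fold, Trps1 1.68-fold, Tle4 1.62-fold, Twist1 1.26-fold and Twist2 1.16-fold. Tle3 fell 2.07-fold and the corepressor gene Runx1t1 fell 1.39-fold. Among those that assist bone formation, Nfatc1 rose 1.52-fold, whereas Atf4 fell 3.52-fold and Cebpb 4.72-fold. The Hippo coactivator genes parted, with Yap1 1.40-fold higher and Wwtr1 (TAZ) 1.31-fold lower. Tle2, Hdac5, Zfp423 and Cebpd did not pass (log2 fold changes of 0.06, 0.11, 0.41 and -0.17).

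Genes made by bone cells also moved in both directions. Past the threshold, 11 of 18 were higher and 4 lower, while 3 missed it, beside 71.1% of all tested genes called, 36.2% higher and 34.9% lower. The median log2 fold change was 0.77, against -0.012 for all tested genes. The matrix protein genes Postn (periostin, 21.0-fold), Spp1 (osteopontin, 5.09-fold) and Sparc (osteonectin, 2.21-fold) rose, as did the collagenase gene Mmp13 (2.18-fold) and the cell adhesion gene Cdh11 (osteoblast cadherin, 2.56-fold). Alpl, the alkaline phosphatase that allows mineral to form, fell 6.88-fold, to 36.6 ± 10.7 normalized counts in libraries labelled Bmal1 KO, against 252 ± 45.1 in WT libraries (adjusted p = 3.47e-05). The osteocalcin gene Bglap had 0 reads in libraries labelled Bmal1 KO and 17 in WT libraries, and its copy Bglap2, named after its values were seen, had 3 reads in libraries labelled Bmal1 KO and 186 in WT libraries. These copies are nearly identical, so their counts are uncertain. Bglap3, Ibsp, Dmp1, Sost and Mepe also had too few reads to be tested. The osteoblast marker list (Bglap, Ibsp, Dmp1 and Ifitm5) summed to 16.0 to 29.97 normalized counts in libraries labelled Bmal1 KO and 57.8 to 60.5 in WT libraries, and Ifitm5 made up most of the WT sum. Ifitm5 fell 3.73-fold, to 13.8 ± 5.17 normalized counts in libraries labelled Bmal1 KO, against 51.4 ± 2.65 in WT libraries (adjusted p = 0.00151). Dmp1, not tested, had 8.70 ± 3.00 normalized counts in libraries labelled Bmal1 KO and 3.00 ± 1.49 in WT libraries.

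Genes made by cartilage cells were divided. Past the threshold, 6 of 18 were higher and 4 lower, while 8 missed it, beside the same 71.1%, 36.2% and 34.9% of all tested genes. The median log2 fold change was 0.19, against -0.012 for all tested genes. Prg4, the joint lubricant lubricin, rose 38.6-fold (2661 ± 59.4 normalized counts in libraries labelled Bmal1 KO and 69.0 ± 11.4 in WT libraries, adjusted p = 4.65e-08), Comp 10.9-fold and Col11a1 3.09-fold. Chil1, a chitinase-like protein gene, fell 14.4-fold, Col11a2 2.85-fold and the matrilin gene Matn2 2.23-fold. Col2a1, the main cartilage collagen, was named after its values were seen and fell 4.32-fold (limma adjusted p = 0.000189). It had 21.3 ± 4.56 normalized counts in libraries labelled Bmal1 KO, against 92.1 ± 13.7 in WT libraries. Acan, Col9a1, Matn1, Cnmd, Epyc, Ihh, Snorc and Ucma had too few reads to be tested. The chondrocyte marker list (Col2a1, Acan, Matn1 and Hapln1) summed to 59.1 to 79.1 normalized counts in libraries labelled Bmal1 KO and 91.7 to 114 in WT libraries, and Col2a1 made up most of the WT sum. Hapln1, a link protein of cartilage matrix, moved against that sum and rose 13.7-fold, to 33.1 ± 16.4 normalized counts in libraries labelled Bmal1 KO, against 2.42 ± 2.67 in WT libraries (adjusted p = 0.00143). Hapln1 reached the filter for testing only with libraries labelled Bmal1 KO. Acan, not tested, had 10.8 ± 2.70 normalized counts in libraries labelled Bmal1 KO and 4.14 ± 1.37 in WT libraries.

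Fibroblasts and mesothelial cells make some of these matrix genes too, and their markers also differed. Beside them, 71.1% of all tested genes were called, 36.2% higher and 34.9% lower. Of 5 adventitial fibroblast markers 3 rose and 2 fell, and the summed list ran from 28700 to 31530 normalized counts in libraries labelled Bmal1 KO and from 14520 to 15530 in WT libraries. Of 4 mesothelial markers Msln rose and Upk3b, Wt1 and Krt19 fell, and the summed list ran from 5711 to 6256 in libraries labelled Bmal1 KO and from 3264 to 4341 in WT libraries. Msln made up most of the sum in libraries labelled Bmal1 KO (4525 ± 132, against 356 ± 26.3 in WT libraries). Wt1 fell 13.9-fold, Upk3b 5.65-fold and Krt19 1.98-fold, so the sum does not describe the list. The part of these cells in the bone and cartilage results was not tested.

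**Figure D4:**
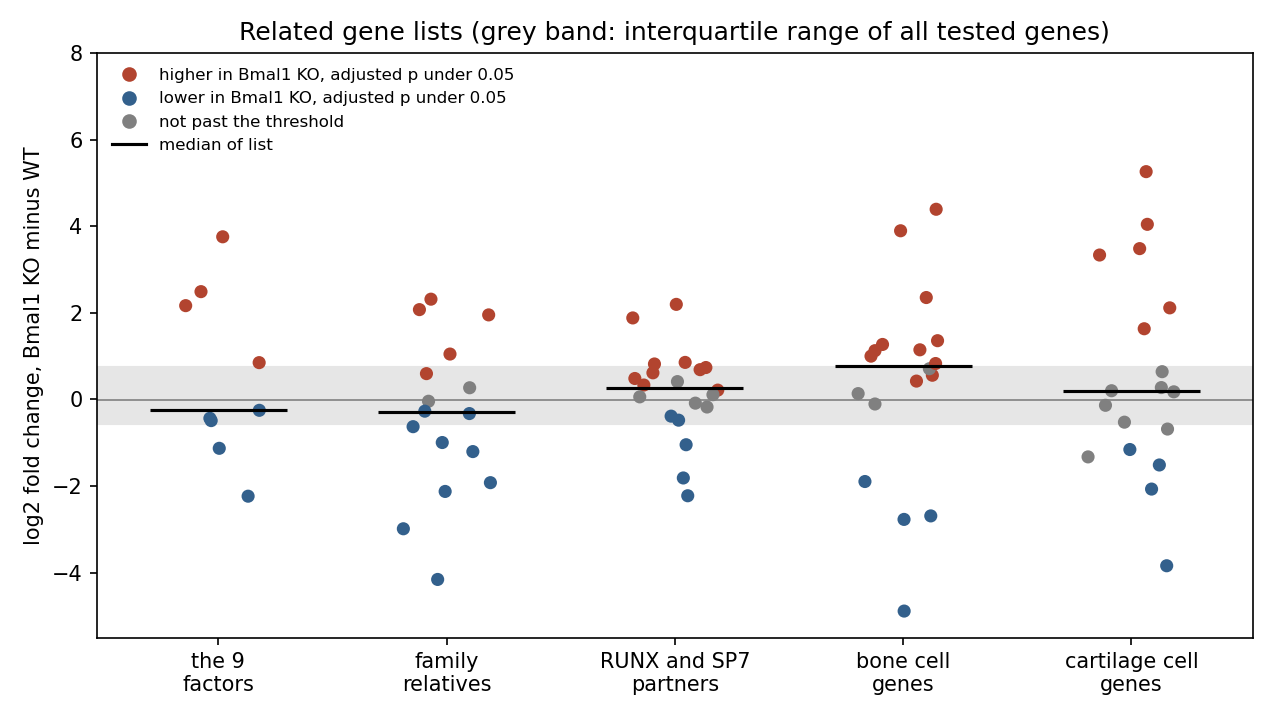
Log2 fold changes (vertical axis, libraries labelled Bmal1 KO minus WT) of tested genes in 5 groups, each point a gene. Points show genes that rose, fell or did not pass the threshold, black lines are group medians, and the grey band is the interquartile range of all tested genes, from -0.56 to 0.75. Each group has genes on both sides of 0, and the bone cell genes have the highest median, 0.77.

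Genes whose profile over the 6 libraries lay nearest to that of Runx2, by Euclidean distance between centred log2 values, were Socs7 (0.039), Hirip3 (0.044) and Gstz1 (0.0495). Those nearest to Sox9 were Atad2 (0.061), Cd164 (0.0726) and Zfp664 (0.0865). With 2 groups of 3 libraries, these distances mainly describe genes with a fall of like size.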

How the data were processed

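The authors' deposited table holds normalized read counts, a signal per gene and library, for 27179 NCBI Gene IDs. The submitters' processing notes name Trimmomatic, HISAT2, featureCounts and mm10, with no version. Libraries were made with a stranded mRNA kit, per the labels' protocols. Non-zero signals were whole multiples of 1 step per library (100% of values within 0.01), which gave the reads back, with implied factors of 0.834 to 0.981 for libraries labelled Bmal1 KO and 1.09 to 1.21 for WT. Sample titles gave the groups and the replicate numbers.

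The main test was limma 3.58.1 (R 4.3.3) with a mean-variance trend on log2(value + 1), over 16086 genes with at least 10 normalized counts in at least 3 libraries, with Benjamini-Hochberg adjustment over all of them and a threshold of 0.05. This scale understates changes of low genes. Some genes reached the filter only with libraries of the group where they were higher. Among them were Dlx5, Sox6, Dlx6, Sox10, Hapln1, Comp, Ptprc, Dlx4, Sp5, Bglap2, Ifitm5 and Wt1. The filter favours that direction for them. Folds are ratios of mean normalized counts. Alternatives were other scalings, pseudocounts and filters, edgeR 4.0.16 and DESeq2 1.42.0 on recovered reads, limma without the trend, a replicate block, and each library left out; removal of a length and GC trend was added after seeing the data. edgeR called 11479 genes, against 11435. In simulated data for this design, 174 of 200 genes changed 2-fold were recovered, with 3 false calls among 15363 genes. The simulation gave every gene the same dispersion (spread between replicates) and changed only those 200 genes. Many more genes were called in the real data, and their spread differs between genes, so these rates do not carry over. Replicates of each group differed by more than sampling noise (chi-square per gene of at least 9.9).

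Lengths are unions of GENCODE M21 exons; positions and promoters are from RefSeq (GRCm38.p6), counted from 1. The members and lists were chosen with earlier results of these data known. Named genes were all members, all listed relatives and partners, up to 6 tested bone and cartilage genes each with the smallest adjusted p and the untested ones, and the nearest profiles (mean of 100 or more); Bglap2 and Col2a1 were added after their values were seen. Some genes that this rule takes are not reported here.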

Additional observations from a re-analysis of the deposited data

How the results depend on the processing

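Each factor kept its direction under all 18 alternatives, and Runx1, Sp7, Sox5, Sox6, Sox9, Msx1 and Dlx5 kept their call in each. For Runx2, log2 fold changes with 1 library left out ran from -0.29 to -0.23, and 2 of these 6 lost the call, while over all 18 alternatives they ran from -0.51 with the length and GC trend removed (adjusted p = 0.000111) to -0.20 with upper-quartile scaling (adjusted p = 0.0393). The Msx2 call was lost under 9 of 18 alternatives. Its log2 fold change was -0.38 with upper-quartile scaling (adjusted p = 0.0568), -0.43 with no filter (adjusted p = 0.0501), -0.43 with DESeq2 (adjusted p = 0.0592), -0.28 with the length and GC trend removed (adjusted p = 0.114) and from -0.53 to -0.37 with 1 library left out. The number of factors that fell ran from 3 to 5, and that of relatives that rose from 2 to 5, with 1 library left out. At a filter of 50 normalized counts, fewer genes were tested, and 3 relatives rose and 1 bone cell gene fell. Same-numbered libraries did not deviate together (correlations of -0.0045, 0.026 and 0.084), and not every library correlated best with its own number, so the numbers were not taken as pairs. With the replicate block, 11556 genes were called, against 11435, and the Msx2 call was lost (log2 fold change -0.43, adjusted p = 0.0693). Read depth limits Dlx5, Sox6 and Sp7 in WT libraries and Msx1 in libraries labelled Bmal1 KO, each with fewer than 100 reads in that group.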

Other observations

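WT replicate 2 had the lowest Dlx5 and Sox6 values of all 6 libraries, and it was also the lowest WT library for Dlx6 (1.66 normalized counts, against 11.9 in replicate 1 and 5.53 in replicate 3), Sox10 (4.98, against 18.3 and 11.1) and Xist (12.4, against 89.9 and 73.7). Of 1933 genes that were higher in libraries labelled Bmal1 KO with means at least 4-fold apart, WT replicate 2 was the lowest WT library in 1380, or 73.8% of those without a tie. The endothelial gene Pecam1 had 218 to 327 normalized counts in libraries labelled Bmal1 KO, against 32.1, 14.1 and 58.0 in WT replicates 1, 2 and 3. No cause of this order was tested. Sox5 and Sp7, which also rose, did not follow it. For Sox5, WT replicate 1 was lowest (310 normalized counts, against 390 and 411 in replicates 2 and 3). For Sp7, WT replicates 1, 2 and 3 held 24, 27 and 23 reads, too close to be ordered.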
